A study of Mus musculus with 8 samples.

Results

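Acetylation of lysine 27 on histone H3 (H3K27ac) marks active promoters and enhancers, and where it runs on for many kilobases it is called a broad domain, a form often found over genes that define a cell's identity. The adrenal cortex makes steroid hormones from cholesterol: cholesterol is imported into mitochondria and cut to pregnenolone by Cyp11a1, after which Hsd3b1, Cyp21a1 and Cyp11b1 carry it to corticosterone. The mouse gland goes on maturing after birth, when the cortex takes on its adult zones and the medulla holds the chromaffin cells that make catecholamines.

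The domains described here, chosen by the widths of the P1 and 12-week peaks, were the very wide H3K27ac peaks of the adult gland that were not yet very wide just after birth. On chromosomes 1 to 19, the 1000 widest peaks of each library's list of broad peaks were called wide. Wide peaks of both 12-week lists were merged, and a merged domain was kept when it held a wide peak of the 12-week female and of the 12-week male list and overlapped, by 1 base or more, no wide peak of either P1 list. This gave 325 of the 669 domains that were wide in both 12-week lists (48.6%, a share fixed by the rule). The other 344 also touched a wide P1 peak.

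All 7 ChIP libraries were made with an antibody to H3K27ac from adrenal glands of the inbred mouse strain C57BL/6J. Each was 1 pool of glands: 30 glands of E18.5 embryos whose sex was not determined, 22 glands each of P1 females and P1 males (postnatal day 1), 12 glands each of 2-week females and males, and 6 glands each of 12-week females and males. With 1 library for each age and sex, no value below has a replicate of the same age and sex, and no test between ages was run. Widths in the P1 and 12-week lists chose the domains, so their values there are given as a description. The E18.5 and 2-week lists played no part in the choice. In a whole gland, a change in the share of cells that carry the mark and a change in the mark within cells cannot be told apart.

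The lists differed as a whole. On chromosomes 1 to 19 they held 106203 peaks at E18.5, 47968 and 43638 at P1 (female and male), 49382 and 46043 at 2 weeks, and 66594 and 52313 at 12 weeks. The 1000th widest peak spanned 4287 bp at E18.5, 4469 and 4506 bp at P1, 6303 and 5845 bp at 2 weeks, and 10129 and 9049 bp at 12 weeks. The width that counted as wide thus rose 2.27 times in females and 2.01 times in males from P1 to 12 weeks, and 83 P1 female and 94 P1 male peaks reached 9049 bp, against 1000 in the 12-week male list. Sequencing depth is unknown, because the lists hold no read counts, and its part in these differences was not tested. The cortex genes Star, Cyp11b1, Cyp21a1 and Nr5a1 all lay under 12-week domains that also touched a wide P1 peak.

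The letters under these domains are shown first for the steroid genes, because the DNA site of NR5A1 (steroidogenic factor 1), the nuclear receptor that sets up and maintains steroid-producing cells, can be read in them. Each line gives 48 bases of the GRCm38 reference around a match to CAAGGTCA, with the match in capitals, written 5′ to 3′ on the strand that reads CAAGGTCA. Matches in repeat-masked sequence are not printed. A match is a description of the letters and not a bound site.

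Cyp11a1 site 1, chr9:58006186-58006233, minus strand: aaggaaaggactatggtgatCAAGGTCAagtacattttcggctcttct
Cyp11a1 site 2, chr9:58011761-58011808, plus strand: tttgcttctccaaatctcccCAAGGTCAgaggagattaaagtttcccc
Cyp11a1 site 3, chr9:58018143-58018190, minus strand: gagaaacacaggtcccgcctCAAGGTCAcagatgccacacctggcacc
Cyp11a1 site 4, chr9:58020077-58020124, minus strand: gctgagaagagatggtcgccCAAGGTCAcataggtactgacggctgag
Hsd3b1 site, chr3:98861833-98861880, plus strand: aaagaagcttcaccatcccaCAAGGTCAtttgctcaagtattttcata
Fdx1 site, chr9:51954750-51954797, plus strand: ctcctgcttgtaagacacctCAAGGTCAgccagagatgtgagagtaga
Akr1b7 site 1, chr6:34406979-34407026, minus strand: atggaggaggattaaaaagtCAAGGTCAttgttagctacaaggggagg
Akr1b7 site 2, chr6:34411882-34411929, plus strand: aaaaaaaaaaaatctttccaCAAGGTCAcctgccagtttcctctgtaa
Akr1b7 site 3, chr6:34413191-34413238, minus strand: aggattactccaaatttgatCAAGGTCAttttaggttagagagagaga
Akr1b7 site 4, chr6:34416990-34417037, minus strand: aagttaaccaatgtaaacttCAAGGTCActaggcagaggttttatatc
Tspo site, chr15:83562288-83562335, plus strand: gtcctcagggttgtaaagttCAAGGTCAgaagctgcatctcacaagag
Por site, chr5:135700937-135700984, minus strand: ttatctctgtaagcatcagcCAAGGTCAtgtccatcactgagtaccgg
Cyb5b site 1, chr8:107157931-107157978, minus strand: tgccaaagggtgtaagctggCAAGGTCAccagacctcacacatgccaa
Cyb5b site 2, chr8:107166055-107166102, minus strand: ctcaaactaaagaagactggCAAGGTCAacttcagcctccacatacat

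These sites differed in the age at which a peak lay over them. Cyb5b sites 1 and 2 were in a peak of both P1 lists and of every later list, but in none at E18.5. Cyp11a1 site 2 was likewise called from P1 on, whereas site 3 and Akr1b7 sites 1 and 2 were in no P1 peak and in peaks of all 2-week and 12-week lists. The Hsd3b1 site, upstream of the gene, was in a peak of the 12-week lists alone, and Cyp11a1 site 1 in a peak of the 12-week male list alone. At E18.5 a peak lay over Cyp11a1 site 4 and the Fdx1 site, and at P1 over the Fdx1 site and Akr1b7 site 3 in the male list and the Por site in the female list. The Tspo site was in a peak of the 2-week male and both 12-week lists, and Akr1b7 site 4 in one of the 2-week male and 12-week female lists but not of the 12-week male list.

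The 325 domains covered 5.19 Mb in all. Their widths ran from 10140 to 49072 bp, with a median of 14428 bp. They fell into 287 loci when domains under 50 kb apart were joined, and 30 of these loci held 2 or more. Cacna1c, which encodes the pore of the L-type calcium channel Cav1.2, carried 5 domains, the most of any gene. Its gene model spans 609 kb and that of Gsg1l 204 kb, against a median of 17.6 kb for all protein-coding genes. The part of gene length in these counts was not tested. Arhgap26, Gsg1l and Fgfr2 carried 3 each, though the gene model of Fgfr2 is uncertain. Every autosome had some, from 9 on each of chromosomes 13, 16 and 19 to 28 on chromosome 9.

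At younger ages the same stretches held scattered shorter peaks. The share of a domain's length that lay in a peak, its covered share, had a median of 31.0% in the P1 female list (range 0 to 68.5%) and 32.1% in the P1 male list (0 to 75.7%). It was 23.3% at E18.5 (0 to 86.6%), 66.3% in the 2-week female list (7.29 to 99.5%) and 62.4% in the 2-week male list (6.30 to 99.4%). In the 12-week lists it was 99.3% and 94.7%. Both 2-week shares were above both P1 shares in 308 of 325 domains, and below both 12-week shares in 309. The rule set the P1 shares low and the 12-week shares high, so these counts are a description. In the other 344 wide 12-week domains they were 266 and 295.

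The typical domain held 3 separate peaks at E18.5, at P1 and at 2 weeks, and 1 at 12 weeks. The widest of these pieces had a median of 1960 bp at E18.5, 2419 and 2610 bp at P1, 5813 and 5333 bp at 2 weeks, and 13546 and 12082 bp at 12 weeks. Its median was 2.40 times as wide at 2 weeks as at P1 in females and 2.04 times in males. The rule capped the P1 widths, so these ratios are a description and are not to be read against the growth of the whole list, whose 1000th widest peak rose 1.41 and 1.30 times. In the lists as deposited, 7 domains held no peak in the P1 female list, 2 in the P1 male list and 18 at E18.5, and every domain held a peak in both 2-week lists. With peaks of −log10 q of at least 5 alone, and the domains chosen anew, the median covered share was 0.0% at E18.5 and at P1 and 32.4% at 2 weeks. That cutoff kept 167 of the 325 domains, and −log10 q belongs to each library, whose depth is unknown. The strongest peak of each domain was also ranked by −log10 q within its own list. Its median percentile was 87.4 at E18.5, 73.1 and 71.8 at P1, 78.8 and 77.6 at 2 weeks, and 83.7 and 80.4 at 12 weeks.

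**Figure D1:**
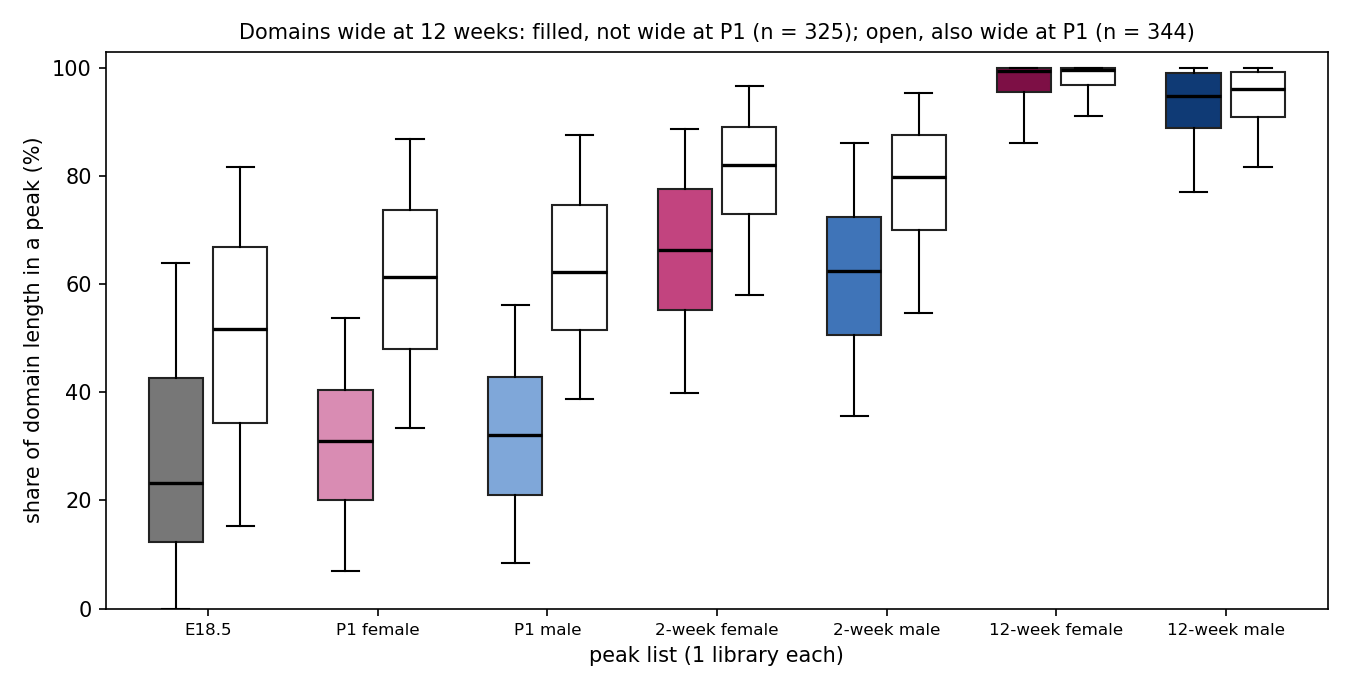
Share of each domain's length in a peak (vertical axis, percent) in the 7 peak lists, for the 325 domains (filled boxes) and for the 344 other domains wide at 12 weeks (open boxes). Boxes span the quartiles with the median as a line and whiskers reach the 5th and 95th percentiles. The filled medians run 23.3, 31.0, 32.1, 66.3, 62.4, 99.3 and 94.7% from left to right.

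The other 344 domains wide at 12 weeks were more covered at every younger age, with medians of 51.7% at E18.5, 61.3 and 62.2% at P1, and 82.0 and 79.8% at 2 weeks. Their P1 values follow from the rule. At 2 weeks, which the rule did not use, 145 of the 325 domains (44.6%) held a wide peak of the female list and 141 (43.4%) one of the male list, against 86.6% and 85.5% of the other domains. At E18.5 the count was 38 (11.7%), against 52.6%. The sets were split by their P1 widths, so these contrasts can follow from the rule and are a description. The 304 domains that were wide in both P1 lists and not at 12 weeks held a wide 2-week peak in 32.2% (female) and 38.5% (male). Among all peaks, 2.03% of the 2-week female, 2.17% of the 2-week male and 0.942% of the E18.5 list are wide, by construction. Of the 325, 101 were wide in both 2-week lists, 84 in 1 of them and 140 in neither.

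At 2 weeks the domains had made a median of 48.6% of the step in covered share from P1 to 12 weeks (quartiles 36.8 and 65.6%). The median was 52.7% in the other wide 12-week domains (quartiles 32 and 69%). From P1 to 2 weeks the covered share was higher at the later age in both sexes in 311 domains, lower in both in 0, and moved in opposite directions in 14. The P1 values follow from the rule, so these counts are a description. The E18.5 share was below both P1 shares in 171 domains and above both in 110, although the E18.5 list was the longest.

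**Figure D2:**
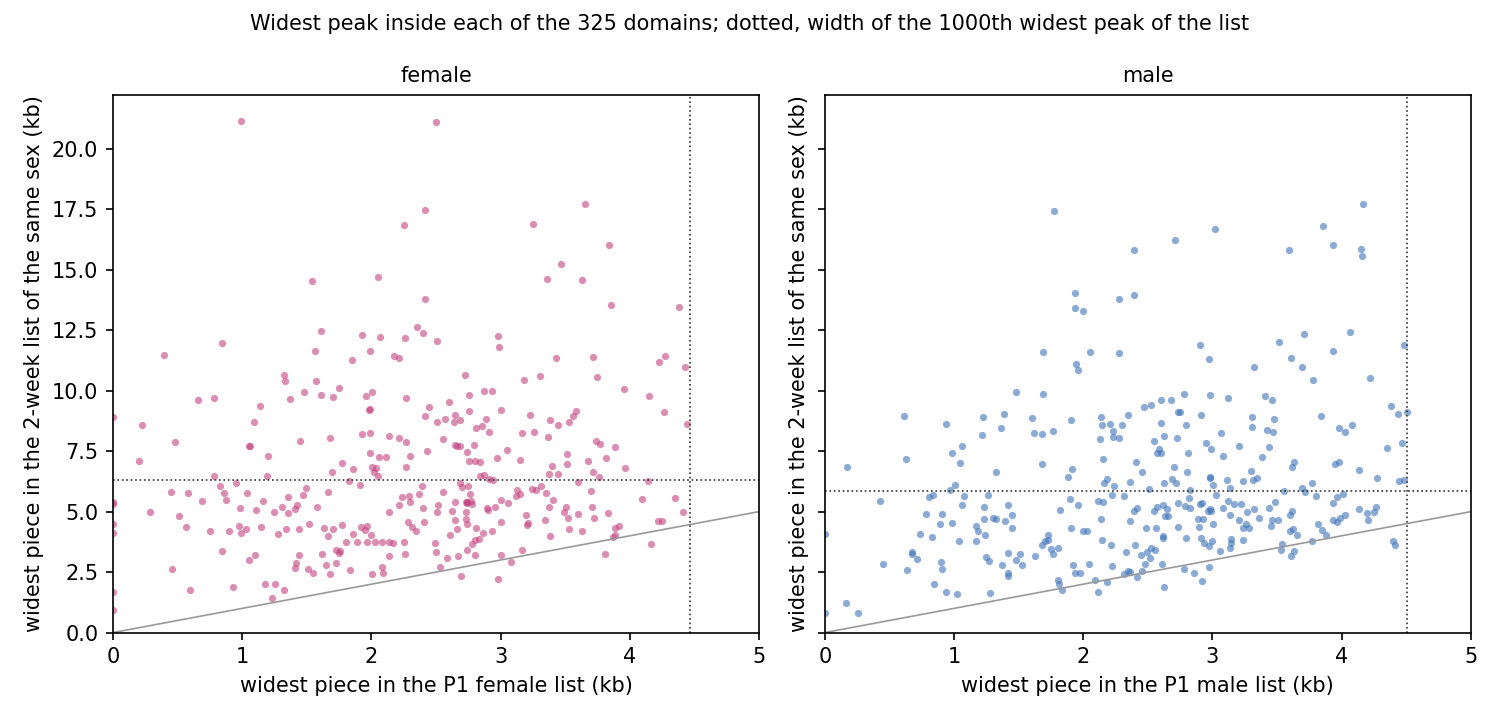
Width of the widest peak inside each of the 325 domains at P1 (horizontal axis, kb) and at 2 weeks in the same sex (vertical axis, kb), females left and males right. The solid line marks equal widths and dotted lines the width of the 1000th widest peak of each list. Most points lie above the solid line, and points above the horizontal dotted line are the 145 (female) and 141 (male) domains already wide at 2 weeks.

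The P1 cut was met by a continuous range of widths. The widest piece inside any of the 325 domains was 4442 bp in the P1 female list and 4505 bp in the P1 male list. The narrowest peak that removed a domain spanned 4482 and 4512 bp. In the female list 14 domains, and in the male list 23, had a piece over 90% of the width at which a P1 peak counted as wide. In 141 and 122 domains the widest piece was under 50% of that width.

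Many of the domains lay inside genes and away from their starts. Of the 325 domains, 148 (45.5%, 95% Wilson interval 40.2 to 51.0%, counting error only) contained a transcription start of a protein-coding gene, 134 (41.2%) overlapped a gene without its start and 43 (13.2%) were intergenic. Among the other wide 12-week domains 66.6% contained a start, and among the domains wide at P1 alone 71.4%. The rule removed domains that touch a wide P1 peak, so it can shape this contrast, which is a description. The median width of the other wide 12-week domains was 15898 bp. Of all peaks, 18% in the 12-week female and 21.1% in the 12-week male list lay over a start. Of the bases in the 325 domains, 71.8% were intronic, 4.55% exonic and 23.6% intergenic, and 150 domains lay wholly inside 1 gene. The genes they touched were long, with a median of 52.4 kb against 17.6 kb for all protein-coding genes and 30.7 kb for genes touched by the other wide 12-week domains. Genes with a start inside had a median of 30.9 kb. Gene length thus moved with this placement, and its part in it was not tested.

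In the 148 domains that contained a start, most starts lay in a peak at every age, and the peak over the start was longer at 2 and 12 weeks than at E18.5 and P1. The rule capped the P1 widths and required wide 12-week peaks, so these lengths are a description. Of the starts nearest the middle of their domain, 127 lay in a peak at E18.5, 112 and 114 at P1, 129 and 130 at 2 weeks, and 146 and 144 at 12 weeks. Such a start can be an alternative start. At Soat1 it lay in a peak of the 12-week lists only, whereas the RefSeq start lay in a peak of every list. Of all protein-coding starts, 58.8% lay in a peak at E18.5, 51.2% and 52.5% at P1, 54.4% and 53.5% at 2 weeks, and 59.6% and 55.2% at 12 weeks. Counting any start in the domain, 88.5% of the 148 domains had a start in a peak at E18.5 and 81.1% and 83.1% at P1, below the 96.9%, 97.8% and 97.8% of the other wide 12-week domains with a start. Reach was taken only where the start lay in a peak, so the starts compared differ between lists. The peak over the start reached a median of 1603 bp into the gene and 627 bp upstream at E18.5. It reached 1582 bp (female) and 1658.5 bp (male) into the gene at P1, 3060 and 2793 bp at 2 weeks, and 10208 and 8663 bp at 12 weeks. Upstream it reached 801 and 822 bp at P1, 1435 and 1413.5 bp at 2 weeks, and 3297.5 and 3481 bp at 12 weeks.

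**Figure D3:**
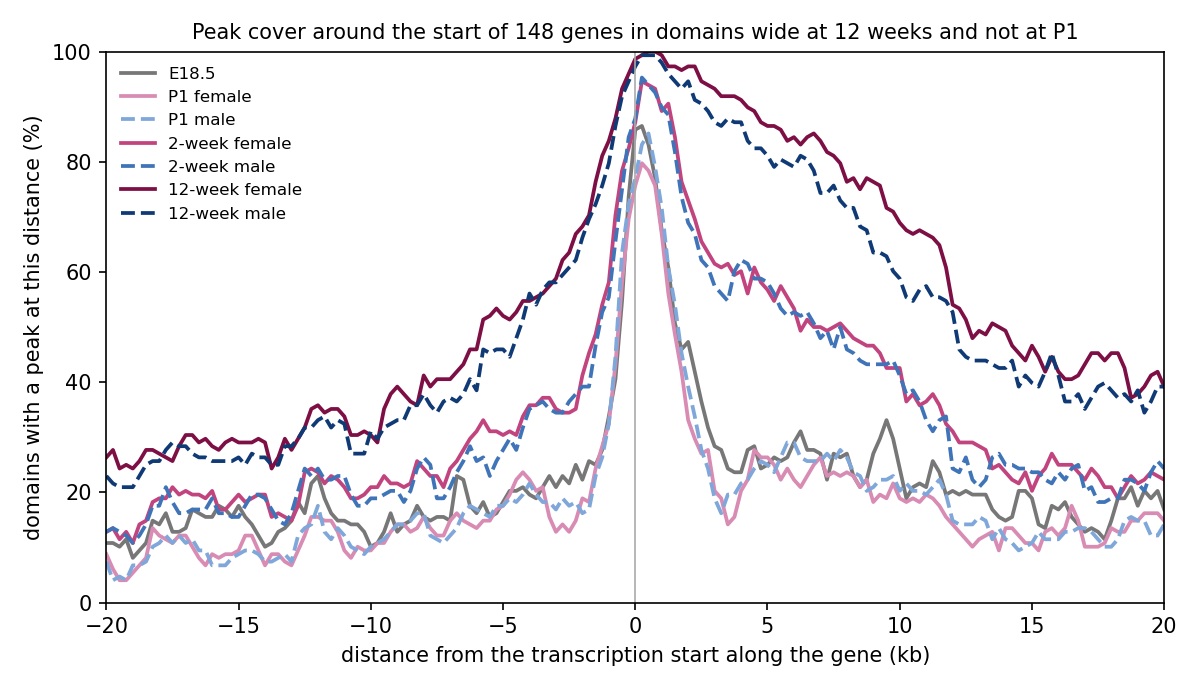
Percentage of 148 domains with a peak (vertical axis) at each distance from a transcription start, in kb along the gene (horizontal axis). The start nearest the middle of the domain was used, with 1 line for each peak list. At 5 kb into the gene 26.4% (female) and 25% (male) were in a peak at P1, 56.8% and 58.1% at 2 weeks, and 86.5% and 81.1% at 12 weeks. At 5 kb upstream the values were 17.6% and 17.6%, 30.4% and 27.7%, and 52.0% and 45.9%. The P1 and 12-week values follow in part from the rule.

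Among 18 gene lists, the one for steroid-making genes had the most members under these domains. Of 20 genes for steroidogenic enzymes and their cofactors, 7 were touched (Cyp11a1, Hsd3b1, Fdx1, Por, Akr1b7, Cyb5b and Tspo) and 6 had a start inside. Of all 20780 protein-coding genes, 1.46% were touched and 0.804% had a start inside. The other wide 12-week domains touched 3 of the 20 (Star, Cyp11b1 and Cyp21a1) and 1.79% of all genes, and the domains wide at P1 alone touched 0 of the 20 and 1.55% of all genes. The steroidogenic genes had a median length of 10.7 kb. The count of 7 fell to 4 with the 500 or the 2000 widest peaks per list and with gaps of up to 3 kb joined, and was 11 with one width in every list.

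Cyp11a1 encodes the mitochondrial side-chain cleavage enzyme, the first and rate-limiting conversion of the pathway. It lay under a pair of adjacent domains. The first (chr9:57997671-58022193, 24523 bp) ran from 17.0 kb upstream of the protein-coding start to 7.52 kb beyond it. Its covered share was 22.8% at E18.5, 19.4% (female) and 20.9% (male) at P1, 78.5% and 67.6% at 2 weeks, and 86.4% and 99.8% at 12 weeks. The E18.5 and P1 libraries were alike and low. The 2-week female share was close to the 12-week female share, and the 2-week male share lay well below the 12-week male share.

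The peaks inside the first Cyp11a1 domain differed between the lists. At P1 short peaks lay 6.42 to 2.50 kb upstream in the female list, 6.25 to 2.49 kb upstream in the male list, and just downstream of the start, from 0.178 to 1.67 kb (female) and 0.303 to 3.30 kb (male). At 2 weeks the female list held a single peak of 14696 bp across the start, and the male list a peak of 6048 bp before it and 6094 bp after it. In the 12-week male list one peak of 24482 bp covered nearly the whole domain, and in the female list the widest was 14255 bp. The start itself, 58014671 in GENCODE, was in a peak of the 2-week female and both 12-week lists only, but RefSeq places a start at 58014952, which the P1 female peak covered and which lay 14, 22 and 36 bp from a peak in the E18.5, P1 male and 2-week male lists. A second RefSeq start, at 57998024, was in a peak of the 2-week male and both 12-week lists. The GENCODE gene model begins at 58006411, 8.26 kb before the protein-coding start, so the P1 pieces before that start lie within the annotated gene.

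The second domain (chr9:58023208-58049274, 26067 bp) held the end of Cyp11a1 and part of Ccdc33, a neighbouring gene. Its covered share was 40.3% at E18.5, 14.1% and 35.7% at P1, 49.8% and 48.6% at 2 weeks, and 95.3% and 87.0% at 12 weeks. It was more covered at E18.5 than at P1, with an E18.5 piece of 5912 bp that was among the 1000 widest of that list.

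Hsd3b1 encodes the 3β-hydroxysteroid dehydrogenase that turns pregnenolone into progesterone. Its domain (chr3:98850331-98863079, 12749 bp) spanned the whole gene of 7.60 kb. The covered share was 17.9% at E18.5, 35.4% and 32% at P1, 67.3% and 65.0% at 2 weeks, and 97.2% and 92.2% at 12 weeks. From P1 to 12 weeks it was higher at each later age in both sexes. The widest P1 peaks lay inside the gene, from 1.64 to 5.41 kb (female) and 1.68 to 5.15 kb (male), and no P1 peak covered the start. The start was in a peak of the 2-week male and both 12-week lists, and the 2-week female list had a peak 24 bp downstream of it.

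The electron carriers of the steroid P450 enzymes showed similar steps. Fdx1, the ferredoxin that feeds electrons to the mitochondrial enzymes, had a domain (chr9:51951559-51967913, 16355 bp) with covered shares of 9.99% at E18.5, 31.1% and 34.1% at P1, 78.5% and 78.3% at 2 weeks, and 90.1% and 89.1% at 12 weeks. Its widest P1 pieces, 4429 and 4482 bp, were only just under the width called wide at P1. Por, the reductase of the microsomal P450 enzymes, had a domain inside the gene (chr5:135699681-135717127, 17447 bp) covered 19.1% at E18.5, 47.3% and 48.9% at P1, 78.2% and 70.7% at 2 weeks, and 98.5% and 90.5% at 12 weeks.

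Cyb5b encodes the cytochrome b5 of the outer mitochondrial membrane. A domain over its start (chr8:107148908-107178467, 29560 bp) was covered 8.75% at E18.5, 25.8% and 33.4% at P1, 62.6% and 73.6% at 2 weeks, and 99.8% and 75.2% at 12 weeks. A second domain lay upstream (chr8:107113606-107141523, 27918 bp), and was covered 9.65%, 39.7%, 40.9%, 95.6%, 81.4%, 98.1% and 100% in the same order of libraries. At 2 weeks the female list held a peak of 21088 bp there, and the male list 6 pieces of which the widest spanned 9840 bp.

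Tspo, a protein of the outer mitochondrial membrane that binds cholesterol, had the smallest domain of the group (chr15:83561968-83572725, 10758 bp). It was covered 45% at E18.5, 47.5% and 40.9% at P1, 70.8% and 82.2% at 2 weeks, and 99.3% and 98.3% at 12 weeks. A peak lay over its start in every list.

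Akr1b7, an aldo-keto reductase abundant in the adrenal cortex, was among the least covered of the group at birth. Its domain (chr6:34404882-34422879, 17998 bp) was covered 7.31% at E18.5, 6.36% and 10.3% at P1, 43.0% and 56.7% at 2 weeks, and 100% and 80.2% at 12 weeks. At P1 the start was marked by a peak of 1144 bp (female) and 1366 bp (male). The peak over the start spanned 4382 and 8455 bp at 2 weeks and 17998 and 11651 bp at 12 weeks. In the 2-week male list it ran from 6.06 kb upstream to 2.39 kb into the gene.

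The RefSeq promoter of Akr1b7 (chr6:34412112-34412411 on GRCm38.p6, plus strand, 250 bases before to 50 after the start) is shown because, among the promoters found for the touched steroid genes, it held a match to the relaxed letters NAAGGNCA. The match is on the minus strand and stands in capitals.

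Akr1b7 promoter: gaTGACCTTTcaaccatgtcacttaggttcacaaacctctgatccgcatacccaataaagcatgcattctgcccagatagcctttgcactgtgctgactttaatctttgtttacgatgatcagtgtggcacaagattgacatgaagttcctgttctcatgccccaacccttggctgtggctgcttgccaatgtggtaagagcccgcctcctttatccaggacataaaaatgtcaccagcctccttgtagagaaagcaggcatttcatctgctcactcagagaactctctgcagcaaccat

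Promoter windows matched 120 of the 167 genes with a start in a domain. Of their 150 windows, 20% held the relaxed letters and 3.33% (5 windows) the full CAAGGTCA, against 20.2% and 1.54% of 31396 autosomal windows.

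**Figure D4:**
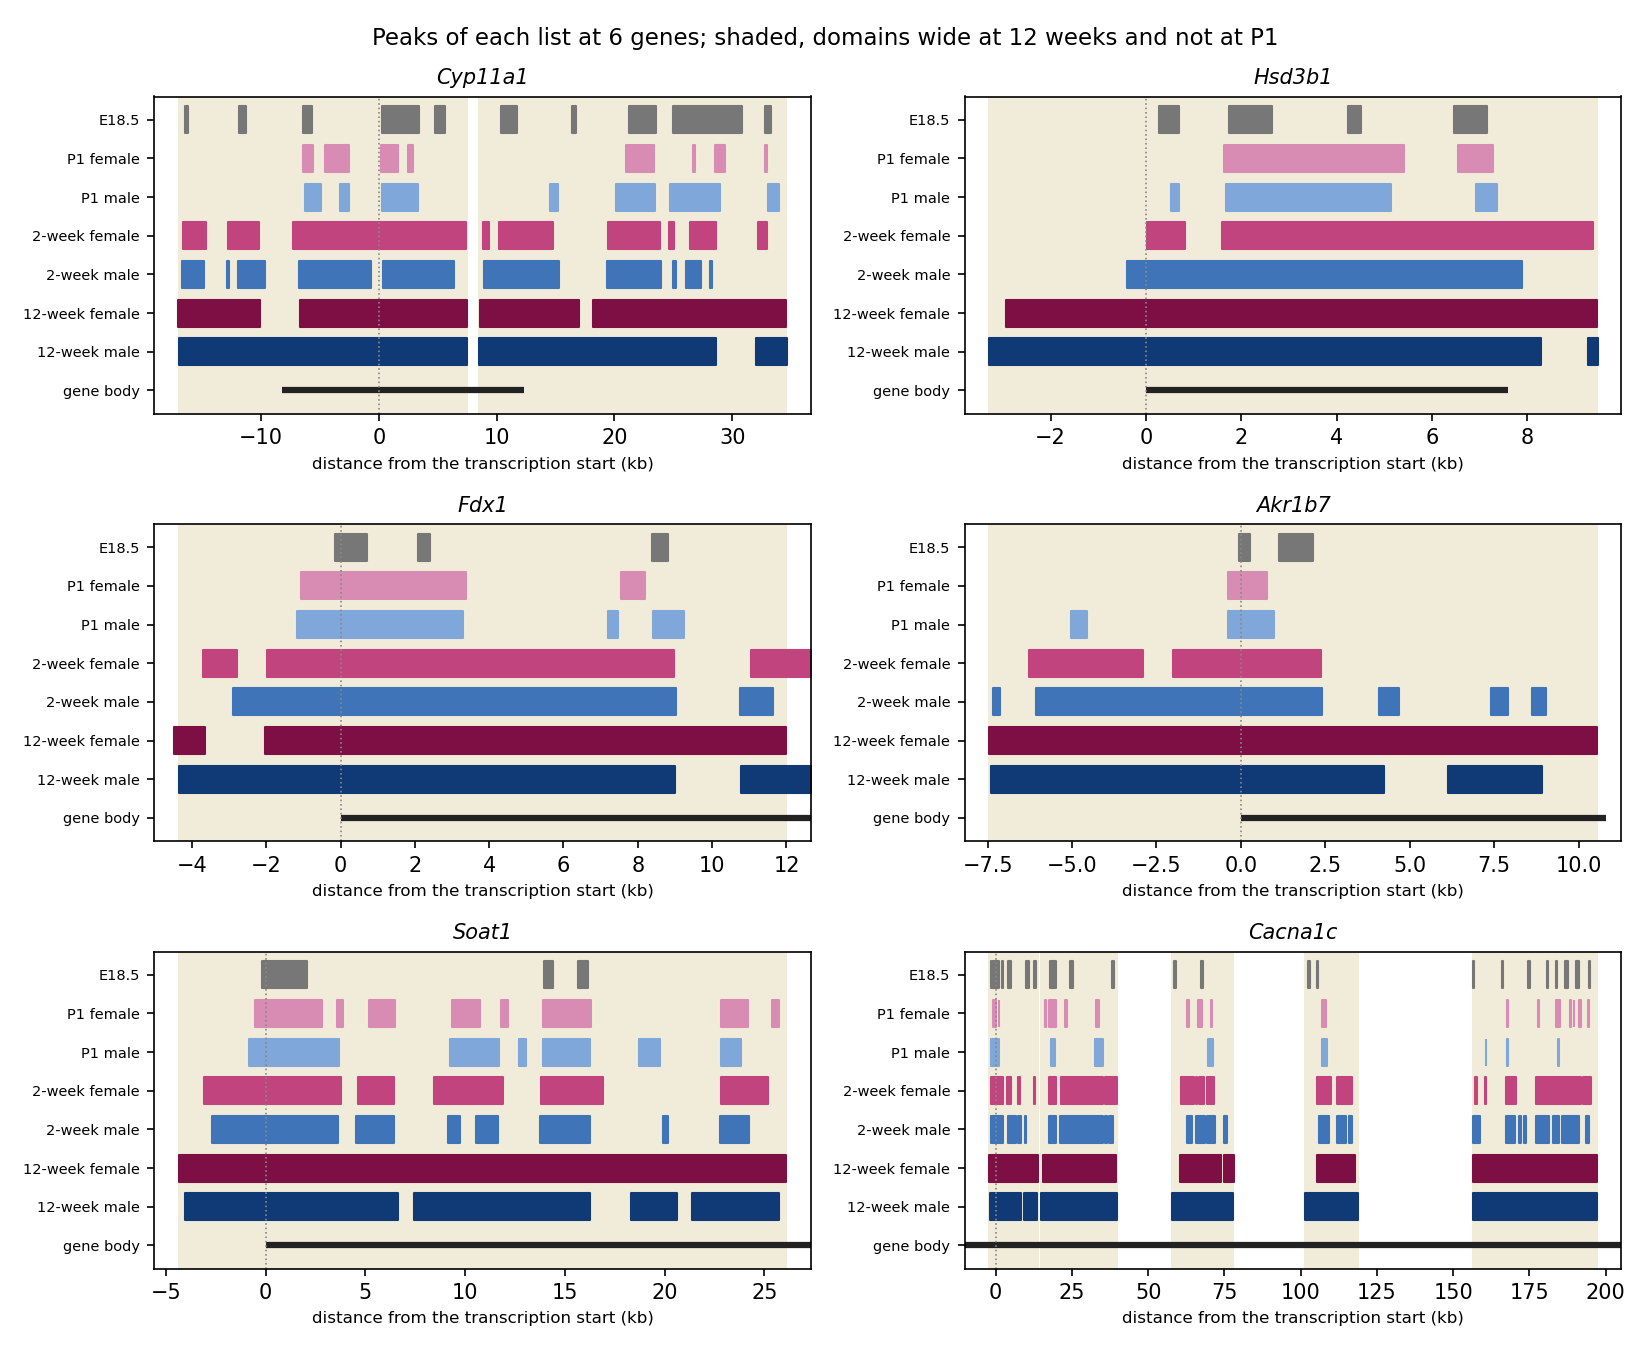
Peaks of the 7 lists (colored bars, 1 row for each list) at 6 genes, by distance from the protein-coding transcription start along the gene (horizontal axis, kb), with the gene body in black and the domains shaded. In all 6 panels the P1 rows hold short separate pieces, and the 12-week rows long ones that fill most of the shading.

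Of 22 genes for cholesterol uptake, storage and synthesis, 1 was touched. This was Soat1, which esterifies cholesterol for storage in lipid droplets. Its domain (chr1:156448227-156478691, 30465 bp) was covered 10.6% at E18.5, 35.8% and 38.4% at P1, 57.8% and 46.5% at 2 weeks, and 100% and 85.9% at 12 weeks. The 12-week female library had a single peak of 30465 bp, where the male library had 4 pieces of which the widest spanned 10721 bp. Its widest P1 piece in males, 4483 bp, was close to the width called wide.

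For the hormone signals that drive the cortex the counts were 0 or 1 a list, beside 1.46% of all genes touched. Of 20 genes of ACTH and cyclic AMP signalling, Adcy9, an adenylate cyclase, was touched, with covered shares of 15.7% at E18.5, 22.6% and 22.8% at P1, 78.5% and 52.1% at 2 weeks, and 90.5% and 100% at 12 weeks. Of 19 cortical transcription factors 0 were touched, whereas Nr5a1 and Gata6 lay under the other wide 12-week domains. Of 19 glucocorticoid-response genes 1 was touched, Klf9, a transcription factor induced by glucocorticoids, against 5 under the other domains. Its domain (chr19:23139444-23155278) was covered 43.5% at E18.5, 31.8% and 33.2% at P1, 81.3% and 80.7% at 2 weeks, and 99.9% and 91.6% at 12 weeks. Of 18 clock genes, Rora, an activator of the circadian loop, was touched.

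Among 20 genes of the outer cortex, which holds the capsule, progenitors and aldosterone-making glomerulosa, 4 were touched, beside 1.46% of all genes. The other wide 12-week domains also touched 4 (Dab2, Nr2f2, Kcnk3 and Fgfr2). Agtr1a is the angiotensin II receptor, and its intronic domain (chr13:30358504-30369648) was covered 4.86% at E18.5, 50.8% and 54.6% at P1, 81.7% and 55.4% at 2 weeks, and 100% and 91.0% at 12 weeks. It was nearly empty at E18.5 and stood at about the same share in both sexes at P1. Axin2 is a target and feedback inhibitor of WNT signalling, and its domain (chr11:108919906-108938204) was covered 58.0% at E18.5, 21.4% and 25.9% at P1, 87.0% and 55.0% at 2 weeks, and 100% and 96.5% at 12 weeks. The E18.5 value there was above both P1 values. Nr2f1, a nuclear receptor, had a domain covered 39.0%, 44.6%, 37.7%, 71.8%, 73.4%, 95.1% and 100% in age order, female before male. The fourth, Fgfr2, a fibroblast growth factor receptor, is uncertain: its GENCODE model runs from 130162451 to 133123350 on chromosome 7 and takes in other genes, and of its 3 domains 1 lay over Ate1 and 1 over Fam53b.

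Lists of markers of other cell types held from 5 to 20 genes, and with 1.46% of all genes touched a count of 0 in lists of this size is near the background. Of 20 chromaffin-cell genes 0 were touched, as were 0 of 5 X-zone genes (the transient inner zone of the mouse cortex), 0 of 12 fat-cell, 0 of 12 fibroblast, 0 of 7 Schwann-cell and 0 of 9 erythroid genes. Of 18 endothelial genes 2 were touched, Eng and Sox18, and of 18 immune-cell genes 1, Fcer1g, which shared its domain with Apoa2 and Tomm40l. The Eng domain was covered 44.6% at E18.5, 48.9% and 44.7% at P1, 50.4% and 66.6% at 2 weeks, and 100% and 90.4% at 12 weeks. The P1 and 2-week female values were close, and the 2-week male value stood higher. The domains touched 0 of 17 immediate early genes, 0 of 20 antioxidant genes and 0 of 16 fetal and growth genes. The domains wide at P1 alone touched 6 of the 17 immediate early genes (Jun, Jund, Ier2, Klf6, Atf4 and Myc), the other wide 12-week domains touched 4 (Fosl2, Junb, Btg2 and Zfp36), beside 1.55% and 1.79% of all genes. The domains wide at P1 alone also touched 3 of the 12 fibroblast genes (Col1a1, Pdgfra and Dcn). Over all lists, 18 of 291 genes (6.19%) were touched.

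**Figure D5:**
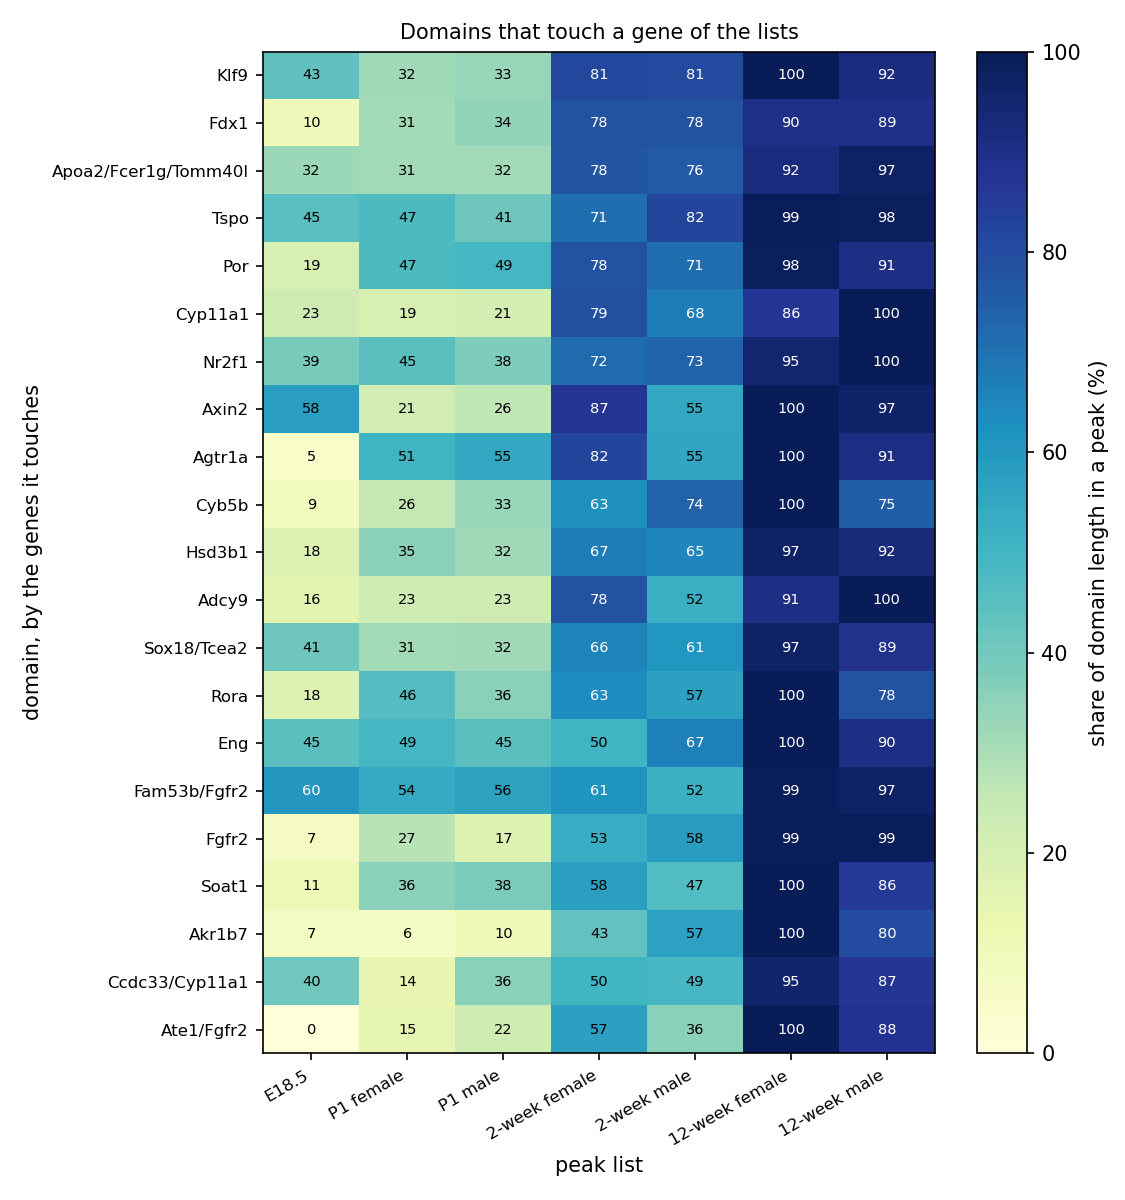
Share of the domain length in a peak (color and number, percent) for the 21 domains that touch a gene of the lists (rows) in the 7 peak lists (columns), ordered by the mean of the 2-week shares. Klf9, Fdx1 and Fcer1g stand at the top, and Akr1b7, the second Cyp11a1 domain and the Ate1 domain at the bottom.

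The widest domain by the narrower of its 12-week peaks lay inside Cacna1c (chr6:118910841-118951635, 40795 bp). It was covered 8.74% at E18.5, 8.52% and 2.58% at P1, 52.3% and 45.6% at 2 weeks, and 100% at 12 weeks in both sexes, where single peaks spanned 40795 and 40775 bp. The widest P1 piece was 1538 bp in females and 430 bp in males. The 5 Cacna1c domains together ran from 2.12 kb upstream of the start at 119107975 to 197.1 kb into the gene. The one beside the start-proximal domain (chr6:119068091-119093007) was covered 13.6%, 15.7%, 14.9%, 79.9%, 73.4%, 96.2% and 100% in age order.

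Next in this order, along with the upstream Cyb5b domain, were an intergenic domain 41.4 kb from Rhob, which encodes a small GTPase, and domains in Meis2, a homeobox gene, and over the starts of Rbm47, an RNA-binding protein, and Adora1, the adenosine A1 receptor. The Rhob domain (chr12:8426247-8458657) was covered 31.9% and 40.6% at P1, 77.5% and 79% at 2 weeks, and 94.5% and 100% at 12 weeks. Meis2 was covered 25.4% and 18.8% at P1 and 76.4% and 73.2% at 2 weeks. Rbm47 lagged, with 23.3% and 24.3% at P1 and 41.7% and 47.5% at 2 weeks, and neither 2-week piece was among the wide ones. Adora1 was covered more at E18.5 (51.6%) than at P1 (18.2% and 30.8%).

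Alas1, the first enzyme of haem synthesis and rate-limiting for it, also lay among the 12 widest; P450 enzymes carry haem. Its domain (chr9:106229101-106257911, 28811 bp) was covered 58.6% at E18.5, 31.8% and 36.2% at P1, 58.1% and 63.3% at 2 weeks, and 92.7% and 95.1% at 12 weeks. The E18.5 peak over the start was 10967 bp and was wide in that list, whereas the P1 pieces did not exceed 3368 and 3594 bp. The remaining members of the 12 were domains over Shb, Lasp1 and Fam214a and inside Cuedc1, covered 73.6%, 87.1%, 43.4% and 79.6% in the 2-week female list.

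At the low end at P1 were domains with almost no peak. A domain inside Gsg1l (chr7:125979308-125994377) held no peak in either P1 list and was covered 12.7% and 8.87% at 2 weeks and 79% and 100% at 12 weeks. Another over the start of Gsg1l (chr7:126075577-126088093) was covered 0% and 2.08% at P1, 7.29% and 6.30% at 2 weeks, and 97.1% and 99.7% at 12 weeks, yet 31.6% at E18.5. These were the lowest shares at 2 weeks, and both domains were covered far more at 12 weeks. Domains near Gpr55, Trim36 and Zbtb40 were as bare at P1, at 0 to 5.87%, but were covered 76.9% and 72.4%, 60.6% and 51.3%, and 50.2% and 35.2% at 2 weeks. Gprc5b, Nrp2 and a domain near Tsku joined Gsg1l at the low end at 2 weeks, with 15.0 to 28.5%.

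At the high end at P1 were domains over Cyb5r3, the cytochrome b5 reductase, Carhsp1, Mapk14 with Slc26a8, and Rab3a with Mpv17l2, and one near Kmt2e. Their P1 shares ran from 51.3 to 75.7%, in pieces under the P1 width. At 2 weeks the most covered domains were those over Peg10 with Sgce, Acly and Atg101 and inside Msi2 and Babam2. Acly, which supplies cytosolic acetyl-CoA for lipid synthesis, was covered 66.8% at E18.5, 39.8% and 66.7% at P1, 99.5% and 98.5% at 2 weeks, and 99.8% and 99.9% at 12 weeks, and had its adult width at 2 weeks, with single peaks of 17709 and 17716 bp. Peg10 and Sgce, neighbouring imprinted genes, were covered 57.2% and 36.0% at P1 and 99.4% in both 2-week lists.

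A domain had to be wide in both 12-week lists, so the rule itself limits how far the sexes can differ there, and the values are a description. The female peak was wider in 216 of 325 domains, with a median female-to-male width ratio of 1.04. This lies below the ratio of the widths of the 1000th peaks, 1.12. By width rank within its own list, the female peak stood higher than the male peak in 117 of 325 domains. The widths were within 1.5 times of each other in 277 domains. The female peak was over 2 times as wide in 12 domains and the male peak in 2. The most unequal, at 3.51 times, was Mbnl1, a splicing regulator, with 46581 bp in females and 13256 bp in males, followed by Soat1 at 2.84 times. At the other end were B4galt5 (0.487) and Rtn4rl1 (0.493). The Soat1 domain held 1 female peak and 4 male peaks, and the Mbnl1 domain 2 and 5, so gaps between peaks enter such a ratio.

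The sequence of the domains was searched on both strands for fixed motifs. CAAGGTCA occurred 545 times, 1.05 per 10 kb (95% Poisson interval 0.964 to 1.14), and its letters in reverse order 0.384 per 10 kb. The density was 0.951 in the other wide 12-week domains, 1.00 and 1.05 in the remaining 12-week female and male peaks, 0.846 in the remaining P1 female peaks and 0.658 in the domains wide at P1 alone. The density in the domains was thus close to that in the remaining 12-week peaks. Intervals cover counting error only, and base composition differed alongside: GC content was 48.3% in the domains, 50.1% in the other wide 12-week domains and 51.2% in those wide at P1 alone. The full letters occurred in 242 domains (74.5%). Of the 545 matches, 122 lay in repeat-masked sequence, and a domain near Pim1 held 9, some in a tandem repeat. Repeat-masked sequence made up 19.8% of the domains, 17.9% of the other wide 12-week domains and 14.7% of those wide at P1 alone.

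As the domains filled, the sites in them came under peaks together with the rest of the sequence. Of the 545 sites, 139 lay in a peak at E18.5 (25.5%), 184 and 177 at P1 (33.8% and 32.5%), 393 and 358 at 2 weeks (72.1% and 65.7%), and 526 and 511 at 12 weeks. Of all bases of the domains, 27.5% lay in a peak at E18.5, 29.9% and 31.6% at P1, and 65.1% and 61.4% at 2 weeks. No P1 peak covered 307 of the sites, and 110 of those were in a peak of both 2-week lists. More than 1 kb from starts, the sequence already in peaks of both P1 lists held 1.14 sites per 10 kb (0.932 to 1.39), and sequence gained by both 12-week lists held 0.998 (0.878 to 1.13), so these intervals overlap.

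For most other motifs the densities lay near those of the other sets. The AP-1 letters TGANTCA occurred 3.31 times per 10 kb, against 3.06 in the other wide 12-week domains and 3.56 and 3.52 in the remaining 12-week peaks. The GATA letters AGATAA occurred 5.13 times, against 4.50, 5.40 and 5.03. The glucocorticoid receptor palindrome occurred 0.262 times, against 0.263, 0.227 and 0.244. The cyclic AMP element TGACGTCA (0.0694) and the ETS letters CCGGAAGT (0.147) were rarer than in the remaining 12-week female peaks (0.127 and 0.255), beside a lower ratio of observed to expected CpG in the domains (0.241 against 0.327). In the other wide 12-week domains the densities were 0.0987 and 0.134 and the CpG ratio 0.272, also below those of the remaining peaks. The NF1 palindrome occurred 8 times in all.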

How the data were processed

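Per the labels' protocols, tissue was fixed, sonicated and immunoprecipitated with an antibody to H3K27ac. The submitters' processing notes name CASAVA 1.8.2, Bowtie2 2.3.4.3, MACS2 2.1.1, deepTools 3.2.2.0 and mm10; the control library and cutoff are not given in the sources used here. For each ChIP library, 1 table of broad peaks was deposited. Each peak has a deposited score, a fold enrichment (a ratio) from the authors' caller, and deposited −log10 p and −log10 q values; these belong to each peak's own library and were used only to filter or rank alternatives. Input DNA from 12-week females was not analysed here.

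Peaks on chromosomes 1 to 19 were ranked by width and merged as described, and positions are 1-based on GRCm38 (mm10); 0 peaks ended past a chromosome end. Starts and genes came from GENCODE M21 (basic set) and promoters from RefSeq (GRCm38.p6). A gene was touched when 1 base overlapped. Motifs were matched on both strands and may overlap one another: every CAAGGTCA also matches NAAGGNCA. The rule was tested on simulated lists (300 of 300 planted domains recovered), and 2275 covered shares were checked against bedtools 2.31.1 (0 differed). Computations used Python 3.11.15, numpy 2.4.6 and pandas 2.3.3.

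The members, gene lists, tests and alternatives were chosen with earlier results of these data known. Named were the 12 members whose narrower 12-week peak was widest, the 5 lowest and 5 highest by P1 and by 2-week covered share, and every list gene touched; the most unequal domains between sexes were named after their values were seen. Alternatives changed the number of peaks, width, −log10 q, gaps, overlap and lists used.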

Additional observations from a re-analysis of the deposited data

Results flagged for a closer look

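In 5 domains the covered share moved in opposite directions in the sexes between P1 and 2 weeks, by more than 6.61 percentage points in each, the median absolute difference between the 2-week sexes. A domain at Hip1 rose by 36.5 points in females and fell by 9.39 in males. A domain at Ggta1 rose by 16.7 in females and fell by 22.8 in males. A domain near Kmt2e rose by 13.5 in females and fell by 7.09 in males, and a domain at Tnip1 rose by 12.1 in females and fell by 8.54 in males. A domain at Syne3 fell by 7.97 in females and rose by 14.5 in males. There is 1 library of each sex and age, and the difference was not tested.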

How the results depend on the processing

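The labels give no replicate numbers, and no fit across ages with sex as a block was run. The number of domains was 325. It was 161 with the 500 and 558 with the 2000 widest peaks per list, 652 with one width (9049 bp) in every list, 507 when P1 wide peaks had to cover 50% of a domain to remove it, and 566 and 575 with the 12-week female or male list alone. Which domains qualify also moved: of the 325, 122 were kept with 500 peaks, 242 with 2000, 167 with peaks of −log10 q of at least 5 and 81 with gaps of up to 3 kb joined. Of the 325, 108 touched a P1 wide peak after that joining, and 136 were no longer wide in both 12-week lists.

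The mean 2-week covered share had a median of 64.4%. It was 68.9% (500 peaks), 60.1% (2000), 71.4% (one width), 32.4% (−log10 q), 58.5% (3 kb gaps), 69.6% (50% cover) and 61.0% (12-week female alone). The E18.5 share of 23.3% was 26.1% (500), 22.4% (2000), 33.8% (one width), 0.0% (−log10 q), 25% (1 kb gaps), 29.4% (3 kb), 31.2% (50% cover), 25.5% and 25% (P1 female or male alone), and 16.6% with the 43638 strongest peaks of each list, an alternative chosen after seeing the data. The mean P1 share of 31.6% was 34.5% (500), 28.7% (2000), 42.1% (one width), 0.0% (−log10 q), 29.2% (1 kb gaps), 28.6% (3 kb), 39.4% (50% cover), and 34.0% and 33.7% (P1 female or male alone). Strict −log10 q leaves few young peaks, so shares fall there by construction.

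The share over a start, 45.5%, was 55.3% (500), 37.8% (2000), 53.5% (one width), 52.3% (−log10 q), 51.5% (1 kb gaps), 56.4% (3 kb), 53.3% (50% cover) and 36.2% (12-week male alone). List genes touched, 18, were 11 (500), 38 (one width) and 34 (50% cover). Steroidogenic genes touched, 7, were 4 (500), 4 (2000), 11 (one width) and 4 (3 kb gaps). The NR5A1 density stayed between 0.972 and 1.09 per 10 kb, and the reversed letters gave 0.384. Apart from the construction named, the cause was not tested. Depth is unknown, so a place without a peak is not shown to lack the mark.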

Other observations

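Some gene groups and single genes outside the fixed lists were noticed after the values were seen, and are given as a description. Of 17 autosomal genes for voltage-gated calcium channel subunits, the domains touched 3, Cacna1c, Cacna2d1 and Cacnb2, and the other wide 12-week domains 0. Of all protein-coding genes these sets touched 1.46% and 1.79%, to be read beside each count here, and calcium channel genes are often long. The Cacna2d1 domain (chr5:16177761-16192072), for the auxiliary α2δ subunit, was covered 1.28% at E18.5, 23.6% (female) and 19.8% (male) at P1, 80.2% and 69.4% at 2 weeks, and 100% and 80.9% at 12 weeks. The Cacnb2 domain (chr2:14600631-14611839), for a β subunit, was covered 20.7%, 21.4%, 23.3%, 48.8%, 38.4%, 95.9% and 99.5% in the same order.

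Of 8 haem synthesis genes the domains touched 2, Alas1 and Alad, the latter encoding the enzyme after Alas1. The Alad domain (chr4:62501056-62521155) was covered 19.4% at E18.5, 30.8% and 34.4% at P1, 54.3% and 71.0% at 2 weeks, and 100% and 92.4% at 12 weeks. Nceh1 and H6pd belong to no counted group and were picked from the 303 genes touched. The fixed list for cholesterol uptake, storage and synthesis had 1 of 22 genes touched. Nceh1, which splits stored cholesteryl esters, was covered 10.9% at E18.5, 34.4% and 30.1% at P1, 56.8% and 58.7% at 2 weeks, and 97.0% and 87.8% at 12 weeks. H6pd, which makes NADPH in the endoplasmic reticulum for steroid interconversion, was covered 56.2%, 50.7%, 57.5%, 70.6%, 70.4%, 86.8% and 89.2% in the same order. Of the 4 Notch receptor genes, Notch2 and Notch3 were touched by these domains and Notch1 by the other wide 12-week domains.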
